A study of Homo sapiens with 6 samples.

Results

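The genes described here encode the nuclear subunits of the 5 complexes of oxidative phosphorylation. Their mRNA levels were compared between parental A549 cells and A549 cells lacking MIR21. A549 is an established human cell line from a lung adenocarcinoma. Ctrl was the parental population, whereas MIR21-KO cells had been grown from single sorted cells after transfection of Cas9 and a pair of guide RNAs directed at the MIR21 locus, the gene of the oncogenic miR-21-5p. Each group comprised 3 polyA RNA-seq libraries, from cells collected 48 h after seeding in DMEM with serum. The number of clones used for the MIR21-KO libraries is not given in the sources used here, so differences between clones and effects of the deletion cannot be told apart.

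Members were the protein-coding rows whose symbol follows the naming scheme of the subunits: NDUFA, NDUFB, NDUFC, NDUFS or NDUFV with a number for complex I, SDHA to SDHD for complex II, UQCR symbols and CYC1 for complex III, COX4 to COX8 for complex IV, and ATP5 symbols for complex V. This gave 90 of 58174 rows, with 39, 4, 10, 17 and 20 members in complexes I to V. The symbols in the table are older ones, for example ATP5A1 for ATP5F1A, ATP5B for ATP5F1B, ATP5F1 for ATP5PB and ATP5G1 for ATP5MC1. The naming rule also takes in the readthrough genes NDUFC2.KCTD14 and ATP5J2.PTCD1, the retrocopies ATP5EP2 and ATP5L2, and ATP5S and ATP5SL, now DMAC2L and DMAC2, which are not subunits of the ATP synthase. NDUFA4, counted here with complex I by its name, is nowadays regarded as a subunit of complex IV. The acyl carrier subunit NDUFAB1 is not matched by the rule; its mean was 49.7 ± 5.28 FPKM for Ctrl and 40.2 ± 6.61 FPKM for MIR21-KO, and it did not pass the test (log2 fold change -0.32, adjusted p = 0.143 by limma). Means are given with the SD over 3 libraries throughout.

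Oxidative phosphorylation couples the oxidation of NADH and succinate to the synthesis of ATP at the inner mitochondrial membrane. Complexes I and II pass electrons to ubiquinone, complex III hands them on to cytochrome c, and complex IV reduces oxygen. The proton gradient built up by complexes I, III and IV drives complex V, the ATP synthase. All complexes except complex II combine nuclear-encoded subunits with subunits encoded in mitochondrial DNA, and the nuclear genes are well known for coordinated transcription through factors such as NRF1, GABP and YY1.

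The deposited values were FPKM, in which read numbers are divided by the length of the gene and scaled to the depth of the library, so that levels can be compared between genes. From 10631667 to 14345209 reads per library lay behind them, so that a single read per kb amounted to 0.0731 to 0.0930 FPKM. In bulk RNA of this kind, fewer cells with an mRNA and less of it per cell cannot be told apart. MIR21 was listed at 0 in every library, but polyA libraries do not capture the miRNA, so the deletion cannot be checked with it; VMP1, in whose last part MIR21 lies, rose from 75.1 ± 3.83 to 143 ± 7.18 FPKM (adjusted p = 0.000473 by limma). Among the markers of the line, KRT8, KRT18, KRT19, AKR1B10, ALDH1A1 and NQO1 were abundant in every library, whereas EPCAM was at 1.65 FPKM or less and CDH1 fell from 8.18 ± 0.584 to 2.86 ± 0.148 FPKM. The defining genes of leukocytes, endothelium and hepatocytes (PTPRC, CD68, PECAM1, VWF and ALB) were at or near 0. All 13 subunit genes encoded in mitochondrial DNA were listed at 0 in all libraries and give no measurement here.

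The miRNA removed in these cells was miR-21-5p, whose mature sequence (RefSeq, GRCh38.p14, chr17:59841273-59841294, plus strand) is shown with its seed, bases 2 to 8, in capitals.
miR-21-5p: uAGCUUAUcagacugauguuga
Its seed match, ATAAGCT, occurred in the longest annotated 3′ UTR of 5 of 89 subunit genes (5.62%), compared with 10.6% of 11657 tested protein-coding genes. An 8mer, ATAAGCTA, was found in 2 subunit genes, NDUFS1 and COX6C (2.25%, against 2.98%). The 3′ UTRs of the subunit genes were short, with a median of 451 bases against 1621 for the tested protein-coding genes. The sites of 4 of the 5 genes are given in a window of 30 bases from GRCh38, 5′ to 3′ on the strand of the gene with the match in capitals, since they are the places where the seed could pair with a subunit mRNA.
NDUFS1, chr2:206116076-206116105, minus strand: ggaaccactaaATAAGCTAgtatgaaataa
SDHC, chr1:161363483-161363512, plus strand: aaggactgattATAAGCTtcatggtacagt
ATP5SL, chr19:41431653-41431682, minus strand: tttgaaaggggATAAGCTttgtcagtagag
ATP5E, chr20:59026846-59026875, minus strand: gaaggaatcggATAAGCTctaaatttcggt
ATP5E, chr20:59026774-59026803, minus strand: actgctaaaggATAAGCTcttcaaaatcaa
None of these 5 mRNAs passed the test in either direction (limma, adjusted p under 0.01), and a seed match is a description of the letters only. Their log2 fold changes were -0.34 for NDUFS1, -0.05 for SDHC, -0.30 for ATP5SL, 0.31 for ATP5E and -0.04 for COX6C.

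Upon MIR21 deletion, few subunit mRNAs passed the test, and those that did were lower. Of the 90 members, 80 had a mean of at least 0.5 FPKM and were tested together with all other such genes by limma on log2(FPKM + 0.1). At an adjusted p under 0.01, 4 subunit mRNAs fell (UQCRC2, SDHA, ATP5A1 and CYC1), which is 5.00% of those tested, beside 8.38% of the 16006 genes tested in all. No subunit mRNA was called higher by limma, beside 7.66% of all genes. At an unadjusted p under 0.05, 15 subunit mRNAs were lower and 0 higher, beside 22.5% and 20.7% of all genes. Voom on the recovered reads called 8 lower, namely the same 4 with SDHB, ATP5F1, ATP5G1 and ATP5B, and 0 higher, beside 11.4% lower and 10.5% higher in all genes. Thus the share of subunits called was below the background in both directions in these analyses.

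The calls also depended on single libraries. Without any one of the 3 Ctrl libraries, or without MIR21-KO replicate 2, 0 subunit mRNAs were called by limma, although 9 to 11 were lower at an unadjusted p under 0.05. In these analyses 2.41%, 2.5%, 2.3% and 2.37% of all genes were called lower at the adjusted p. The share of all genes lower at the unadjusted p was not taken for them, and it was 22.5% with all libraries. Without MIR21-KO replicate 1 the number was 7 (UQCR11, SDHB and ATP5G1 in addition), or 8.75% beside 7.68% of all genes, and without MIR21-KO replicate 3 it was 5 (SDHB in addition), beside 11.3%. Other settings gave 2 subunits without a filter on low values (3.1% of all genes lower), 2 without trend and robust fitting (5.61%), 5 with median-ratio scaling (8.65%), 7 with the length trend removed (10.8%), 7 with a mean of at least 5 FPKM (15.7%) and 7 with protein-coding genes only (14.7%). The number was 10 at a threshold of 0.05 (16.8%). It was 10 with equal sums of FPKM, or 12.5% of the subunits beside 8.7% of all genes, and 12 with GC and length trends removed, or 15.0% beside 13.4%. Thus the share of subunits called lower exceeded the background with equal sums, with GC and length trends removed and without MIR21-KO replicate 1, and was under it in the other settings given here. The median log2 fold change of the 80 subunits was -0.13, beside -0.02 for all genes tested, and 59 of 80 (73.75%) were below 0, beside 51.5% of all genes. Leaving out MIR21-KO replicate 1 moved this median to -0.25, and leaving out replicate 3 moved it to 0.02. Without replicate 3, 10 subunits were higher and 14 lower at an unadjusted p under 0.05, beside 23.5% and 25.7% of all genes, so that the absence of higher subunits at this p rested on that library. All fold changes are MIR21-KO over Ctrl on the log2(FPKM + 0.1) scale, and p-values measure the spread between these libraries.

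**Figure D1:**
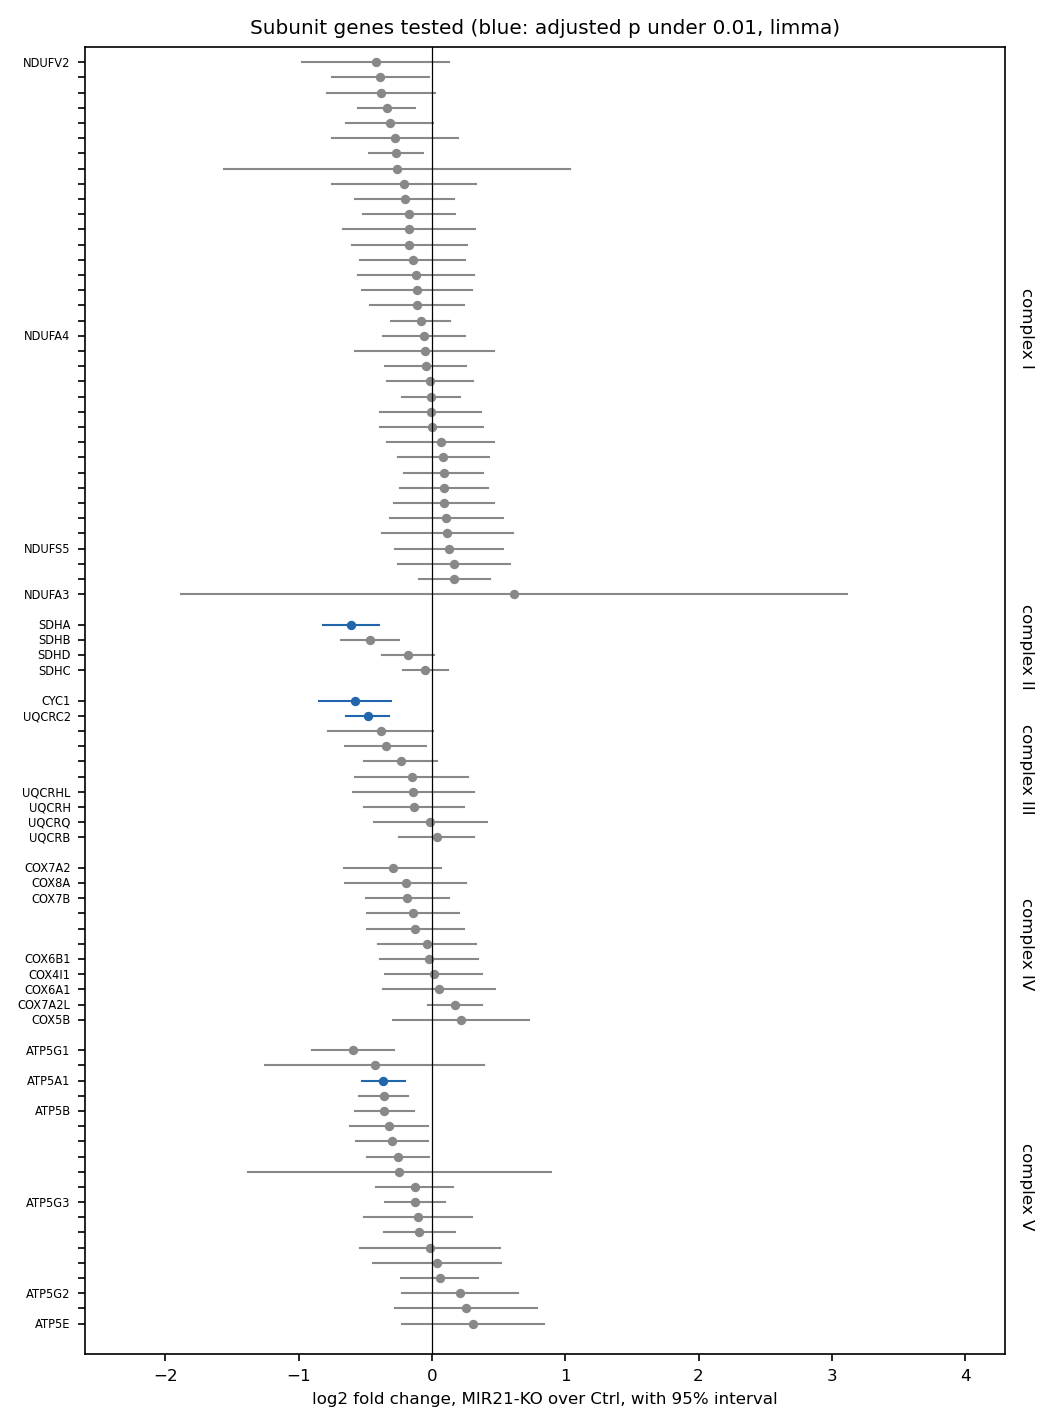
Log2 fold change (x axis, MIR21-KO over Ctrl, points) with its 95% interval (lines) for the 80 subunit genes tested, ordered by value within complexes I to V, with the symbols of the genes named by the rule. The 4 genes with an adjusted p under 0.01 (blue) are SDHA, CYC1, UQCRC2 and ATP5A1, all below 0, and the widest interval is that of NDUFA3, -1.88 to 3.11.

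In complex II, succinate dehydrogenase, all 4 mRNAs had a log2 fold change below 0, beside 51.5% of all genes. SDHA alone passed the test, beside 8.38% of all genes called lower. Summed over the 4 genes, its mRNAs amounted to 76.3, 78.1 and 76.7 FPKM in the Ctrl libraries and to 63.9, 58.0 and 56.9 in the MIR21-KO libraries, that is 77.0 ± 0.961 and 59.6 ± 3.77. The groups did not overlap. The other complexes gave overlapping sums, as described below.

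SDHA, the flavoprotein that oxidises succinate, was at 20.6, 22.2 and 21.9 FPKM in Ctrl and at 15.1, 14.5 and 12.7 in MIR21-KO. All 3 MIR21-KO libraries lay below all Ctrl libraries, with a log2 fold change of -0.61 ± 0.0884 (SE) and an adjusted p of 0.00323 by limma. The adjusted p was 0.0119 with the length trend removed, 0.0151 to 0.0208 without any one Ctrl library and 0.0185 without MIR21-KO replicate 2. SDHA (ENSG00000073578) occupies chr5:218241-256700 on the plus strand, and no coding base is shared with another gene on that strand. It has near-identical pseudogenes, of which SDHAP1 was at 2.39, 2.02 and 2.64 FPKM in Ctrl and 2.58, 3.05 and 3.36 in MIR21-KO, and SDHAP3 at 3.48, 1.98 and 3.62 in Ctrl and 1.64 to 2.44 in MIR21-KO, so reads may have been split between the copies. SDHB, the iron-sulphur subunit that carries the electrons onwards, was at 28.7, 28.8 and 27.9 FPKM in Ctrl and 23.2, 20.1 and 18.7 in MIR21-KO. Its groups did not overlap either, but with a log2 fold change of -0.47 ± 0.0922 and an adjusted p of 0.0102 it lay just outside the threshold.

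The membrane anchors SDHC and SDHD, which bind the haem and ubiquinone, differed less. SDHC was at 11.9, 12.1 and 11.5 FPKM in Ctrl and 11.9, 11.2 and 11.2 in MIR21-KO, with overlapping groups (log2 fold change -0.05, 95% interval -0.22 to 0.12, adjusted p = 0.627). SDHD was at 15.1, 15.0 and 15.3 FPKM in Ctrl and 13.7, 12.2 and 14.3 in MIR21-KO, and did not pass the test (adjusted p = 0.139). Within each library, the ratio of SDHA to SDHC was 1.72, 1.84 and 1.90 in Ctrl and 1.27, 1.30 and 1.13 in MIR21-KO. The corresponding means were 1.82 ± 0.0910 and 1.23 ± 0.0911. For SDHB over SDHC the means were 2.41 ± 0.0197 and 1.81 ± 0.137. Neither ratio overlapped between groups, and both gave p = 0.1 in a two-sided exact permutation test, the smallest p that 3 against 3 libraries allow.

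The subunit promoters were searched, and those of complex II are given, because binding motifs of factors known to drive subunit genes can be read from them directly. Promoters of 300 bases were taken from RefSeq (GRCh38.p14), where 68 of 90 members could be matched by symbol. The consensus of NRF1, searched on either strand as were the others, was found in 16 of the 68 (23.5%), beside 12.3% of 9557 promoters of tested genes and 6.28% of all 27305. The ETS core CCGGAAG, bound by GABP, was found in 19 (27.9%), beside 20.0% and 10.7%. The YY1 core AAGATGGCG was found in 8 (11.8%), beside 4.19% and 1.85%. SDHA was the subunit promoter with the most NRF1 matches, 4 in the sense orientation, shown with the match in capitals and ordered towards the start site.
SDHA, match starting at -166, chr5:218144-218173: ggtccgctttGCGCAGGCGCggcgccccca
SDHA, match starting at -117, chr5:218193-218222: gtggcatggtGCGCAGGCGCgatgtccccc
SDHA, match starting at -68, chr5:218242-218271: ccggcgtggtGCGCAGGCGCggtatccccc
SDHA, match starting at -19, chr5:218291-218320: ccggtgtggtGCGCAGGCGCagtctgcgca
SDHB carried an ETS core starting at -128 and a YY1 core starting at 10, both in the sense orientation on the minus strand.
SDHB, ETS core, chr1:17054142-17054171: cacccgggaaaCCGGAAGccgcctcccact
SDHB, YY1 core, chr1:17054003-17054032: gtcaggagccAAGATGGCGgcggtggtcgc
SDHD, whose mRNA did not pass the test, carried an NRF1 match starting at -110 in the sense orientation and an ETS core starting at -77 in the antisense orientation, on the plus strand.
SDHD, NRF1 match, chr11:112086753-112086782: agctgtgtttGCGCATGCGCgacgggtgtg
SDHD, ETS core, chr11:112086785-112086814: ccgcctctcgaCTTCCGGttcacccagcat
No match was found for SDHC, nor for UQCRC2, CYC1 and ATP5A1 among the called genes. Whether the promoters of these genes were among the 68 is not shown. The 4 SDHA matches were evenly spaced in similar sequence. Motif matches describe the letters and not binding. The mRNAs of the factors themselves did not pass the test: NRF1 was at 5.70 ± 0.763 and 4.38 ± 0.246 FPKM in Ctrl and MIR21-KO (adjusted p = 0.0557), GABPA at 5.56 to 5.84 and 3.61 to 5.67 (adjusted p = 0.118), and YY1 at 16.0 ± 0.971 and 13.5 ± 0.836 (adjusted p = 0.0646).

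**Figure D2:**
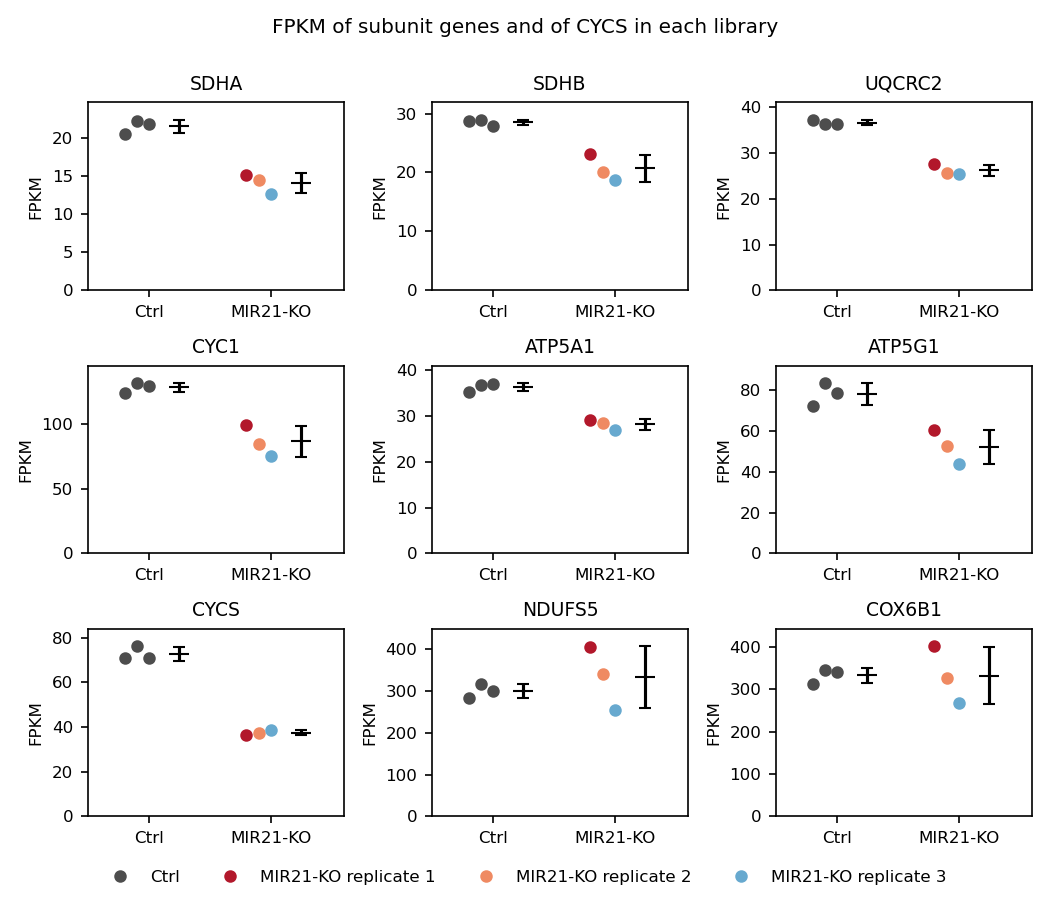
FPKM (y axis, from 0) of 8 subunit genes and of CYCS in each library, with the mean and SD (n = 3) beside the points. SDHA, SDHB, UQCRC2, CYC1, ATP5A1, ATP5G1 and CYCS lie lower in all 3 MIR21-KO libraries, while for NDUFS5 and COX6B1 MIR21-KO replicate 1 lies above and replicate 3 below all Ctrl libraries.

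Complex III, the cytochrome bc1 complex, held 2 of the 4 calls among its 10 tested genes, beside 8.38% of all genes called lower. In 9 of the 10 the log2 fold change was below 0, beside 51.5% of all genes. UQCRC2, a core protein of the matrix arm, was at 37.2, 36.4 and 36.2 FPKM in Ctrl and 27.6, 25.6 and 25.3 in MIR21-KO. It had the smallest adjusted p of all subunits, 0.00285, with a log2 fold change of -0.48 ± 0.0679 (SE). UQCRC2 (ENSG00000140740) lies at chr16:21952660-21983660 on the plus strand. CYC1, the cytochrome that delivers electrons to cytochrome c, was at 124, 132 and 129 FPKM in Ctrl and 99.6, 85.0 and 75.3 in MIR21-KO. It fell by 0.58 on the log2 scale (SE 0.113, adjusted p = 0.00978). CYC1 (ENSG00000179091) lies at chr8:144095027-144097525 on the plus strand.

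Both calls of complex III were lost when certain libraries were left out. Without any one Ctrl library the adjusted p was 0.0177 to 0.0197 for UQCRC2 and 0.0368 to 0.0438 for CYC1, and without MIR21-KO replicate 2 it was 0.0224 and 0.0474. UQCRFS1, the Rieske iron-sulphur protein, was at 83.7, 89.0 and 87.4 FPKM in Ctrl and 79.3, 69.9 and 56.9 in MIR21-KO; the groups did not overlap, but it did not pass the test (log2 fold change -0.35, adjusted p = 0.0786). UQCRC1, the other core protein, had separate groups as well (49.2 ± 2.27 and 42.1 ± 5.94 FPKM, adjusted p = 0.17). The most abundant mRNA of the complex was UQCRQ, a small accessory subunit, at 118, 129 and 126 FPKM in Ctrl and 159, 123 and 95.5 in MIR21-KO. Its MIR21-KO libraries spanned the Ctrl range on both sides, with a log2 fold change of -0.01 (95% interval -0.44 to 0.42). The ubiquinone-binding UQCRB had the highest log2 fold change of the complex, 0.03 (adjusted p = 0.848). UQCRH, the hinge protein, was at 118 ± 12.8 and 109 ± 20.3 FPKM, and its retrogene UQCRHL at 3.56 ± 0.525 and 3.25 ± 0.718; reads of this near-identical pair may have been split between them.

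Complex V, the ATP synthase, had 1 call among 19 tested genes, beside 8.38% of all genes called lower. ATP5A1, the alpha subunit of the catalytic head, was at 35.4, 36.7 and 37.1 FPKM in Ctrl and 29.2, 28.6 and 26.9 in MIR21-KO (log2 fold change -0.37 ± 0.0678, adjusted p = 0.00784). ATP5A1 (ENSG00000152234) lies at chr18:46080248-46104334 on the minus strand. Its adjusted p was 0.073 once the length trend was removed, 0.111 with GC and length trends removed, 0.0315 to 0.0454 without any one Ctrl library and 0.0395 without MIR21-KO replicate 2. ATP5B, the beta subunit with the catalytic sites and the most abundant mRNA of the complex, was at 369, 369 and 366 FPKM in Ctrl and 308, 294 and 261 in MIR21-KO. ATP5F1, a subunit of the peripheral stalk, was at 45.1, 47.8 and 47.9 FPKM in Ctrl and 38.9, 33.9 and 36.9 in MIR21-KO. Neither passed the test (adjusted p = 0.0267 for ATP5B and 0.0137 for ATP5F1), although in both genes all MIR21-KO libraries lay below all Ctrl libraries. The gamma subunit of the rotor, ATP5C1, had groups that did not overlap as well (83.5 ± 2.44 and 70.1 ± 7.68 FPKM, adjusted p = 0.0893).

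Subunits of the central stalk with the highest log2 fold changes in complex V were ATP5E, the epsilon subunit, and ATP5D, the delta subunit. ATP5E was at 32.2, 37.6 and 37.7 FPKM in Ctrl and 59.8, 46.2 and 31.4 in MIR21-KO, with overlapping groups (log2 fold change 0.31, 95% interval -0.23 to 0.84, adjusted p = 0.334). ATP5D was at 29.5 ± 2.20 and 36.4 ± 11.4 FPKM (adjusted p = 0.423). For both genes MIR21-KO replicate 3 was the lowest of the 6 libraries. The log2 fold change of ATP5E was 0.09 to 0.55 when a library was left out.

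The c subunit, which forms the proton-driven ring of the rotor, is encoded by 3 genes whose mature proteins are the same and whose import sequences differ. ATP5G1 was at 72.2, 83.2 and 78.5 FPKM in Ctrl and 60.1, 52.4 and 43.6 in MIR21-KO, so that the groups did not overlap (log2 fold change -0.59 ± 0.129, the lowest of complex V, adjusted p = 0.0143). ATP5G2 was at 62.0, 70.2 and 69.1 FPKM in Ctrl and 96.9, 82.4 and 58.6 in MIR21-KO (log2 fold change 0.21, or 0.05 to 0.41 when a library was left out, adjusted p = 0.411). ATP5G3 was the lowest of the 3 genes, at 28.7 ± 1.02 and 26.3 ± 2.85 FPKM. In Ctrl the order was ATP5G1, ATP5G2 and ATP5G3 in each library, whereas in each MIR21-KO library ATP5G2 was above ATP5G1.

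Expressed as a share of the 3 genes within a library, ATP5G1 made up 44.6, 45.6 and 44.3% in Ctrl and 32.3, 32.5 and 34.7% in MIR21-KO, or 44.9 ± 0.658% and 33.2 ± 1.34%. ATP5G2 made up 38.6 ± 0.380% and 49.9 ± 2.91%. Both shares gave p = 0.1 in the exact permutation test, the smallest it allows here, and neither overlapped between the groups. ATP5G3 made up 16.5 ± 0.541% and 16.9 ± 1.58% (exact permutation p = 0.9). The sum of the 3 genes was 174 ± 10.8 and 158 ± 30.4 FPKM (exact permutation p = 0.6). Thus the mixture of c subunit mRNAs differed between the groups in every library, while their sum overlapped.

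Complex I, NADH dehydrogenase, is the largest complex, and none of its 36 tested mRNAs passed the test by limma, beside 16.0% of all genes. At an unadjusted p under 0.05 there were 3, beside 22.5% of all genes lower and 20.7% higher. Voom called 0, beside 11.4% lower and 10.5% higher. The smallest adjusted p was that of NDUFS1, the core subunit with the largest number of iron-sulphur clusters. It was at 9.04, 8.35 and 8.08 FPKM in Ctrl and 6.26, 6.63 and 7.20 in MIR21-KO, without overlap (log2 fold change -0.34, adjusted p = 0.0293). NDUFB9 and NDUFV2 also had groups without overlap. With the trends on GC content and length removed, 3 mRNAs of complex I passed the test, NDUFA8 and NDUFB10 among them.

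The most abundant mRNA of complex I was NDUFS5, an accessory subunit, at 285, 318 and 301 FPKM in Ctrl and 405, 342 and 256 in MIR21-KO. The MIR21-KO libraries thus lay on both sides of all Ctrl libraries (log2 fold change 0.13, 95% interval -0.28 to 0.53). The lowest log2 fold change of the complex was that of NDUFV2, -0.42 with an adjusted p of 0.211. It rested on 20 to 32 reads per library, and 84.7% of its coding bases are shared with another gene on the same strand, so its level of 0.899 ± 0.0795 and 0.650 ± 0.123 FPKM is uncertain. The highest was that of NDUFA3, 0.61 with an adjusted p of 0.69. NDUFA3 was at 4.48 FPKM in MIR21-KO replicate 1 but between 0.187 and 0.508 FPKM in the other 5 libraries, and its log2 fold change was -0.68 without that library.

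Some genes of complex I were listed at levels far below those of their partners. NDUFA13 had a mean of 0.501 FPKM, NDUFA7 0.352 FPKM, NDUFV2 0.775 FPKM and NDUFA9 1.69 FPKM, beside a median of 30.4 FPKM for the tested genes of the complex. In the GENCODE 29 annotation, 55.2%, 78.3%, 84.7% and 67.9% of their coding bases are shared with another gene on the same strand. NDUFA3 was low as well, with a mean of 1.02 FPKM, but shares no coding base in this way. Over all members, 14 shared at least 50% of their coding bases in this way, and 7 of these 14 had a mean under 3 FPKM, whereas 10 of the other 76 members had one. How the reads of overlapping genes were assigned is not given in the sources used here, and its part in these levels was not tested.

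Complex IV, cytochrome c oxidase, had no call among 11 tested genes by limma, beside 16.0% of all genes. There were 0 at an unadjusted p under 0.05, beside 22.5% of all genes lower and 20.7% higher. Voom called 0 as well, beside 11.4% lower and 10.5% higher. No tested member had separate groups, beside 25.2% of all genes with MIR21-KO lower and 22.8% with it higher. Its most abundant mRNA, and the highest of all subunits, was COX6B1 at 313, 345 and 342 FPKM in Ctrl and 403, 326 and 268 in MIR21-KO (log2 fold change -0.02, 95% interval -0.39 to 0.35). COX5B, at 73.6, 81.5 and 82.9 FPKM in Ctrl and 121, 98.1 and 65.8 in MIR21-KO, had the highest log2 fold change of the complex, 0.22 (adjusted p = 0.474). This value ranged from 0.02 without MIR21-KO replicate 1 to 0.46 without replicate 3, and without replicate 1 that of COX7A2L was higher, at 0.12. COX7A2 had the lowest, -0.29 (64.2 ± 3.07 and 53.1 ± 11.2 FPKM, adjusted p = 0.186).

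Several complex IV subunits exist as alternative isoforms, and only the widely expressed ones were abundant in these cells. COX4I1 was at 66.8 ± 2.47 and 68.4 ± 14.3 FPKM, whereas COX4I2, the isoform known from lung and from hypoxia, was listed at 0 in all 6 libraries. COX6A1 was at 56.2 ± 4.16 and 59.5 ± 15.0 FPKM, and its heart and muscle counterpart COX6A2 was listed at 0. COX8A was at 217 to 258 and 154 to 258 FPKM and COX7B at 46.9 ± 3.25 and 41.5 ± 6.68, beside COX8C and COX7B2 at 0. The muscle isoform COX7A1 did not exceed 0.185 FPKM (1 or 2 reads per library), beside COX7A2 above and COX7A2L, a factor of supercomplexes, at 17.5 to 19.2 and 19.2 to 22.5 FPKM. The testis isoform COX6B2 was at 0.0206 to 0.122 FPKM in Ctrl and 0.202 to 0.250 in MIR21-KO, which corresponds to 1 to 5 and 10 to 13 reads, and all its coding bases are shared with another gene. In complex I the same held for NDUFA4, at 54.7 ± 1.23 and 53.0 ± 9.04 FPKM, and its hypoxia-related paralogue NDUFA4L2, at 0.133 to 0.553 FPKM. Listed at 0, or too low to be tested, were 10 members in all: these paralogues, NDUFA7, NDUFC2.KCTD14 and ATP5L2.

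Most subunit mRNAs followed the same order among the 3 MIR21-KO libraries. MIR21-KO replicate 1 was the highest and replicate 3 the lowest of the MIR21-KO libraries in 68 of 80 subunits (85.0%), beside 32.0% of all genes tested. In 38 subunits (47.5%), replicate 1 lay above all Ctrl libraries and replicate 3 below all of them, beside 6.95% of all genes. The subunits were more abundant, with a median of 38.4 FPKM beside 4.52 for all genes tested. Genes of similar level were not compared, so the part of level in these shares was not tested. Complex IV showed the order in all 11 genes, complex III in 9 of 10, complex I in 31 of 36, complex V in 15 of 19 and complex II in 2 of 4. The summed FPKM of complex IV was accordingly 1450, 1198 and 938 in MIR21-KO replicates 1 to 3, beside 1157, 1268 and 1293 in Ctrl. For complex I the sums were 1964, 1668 and 1307 beside 1534, 1763 and 1675, for complex III 654, 558 and 451 beside 612, 683 and 649, and for complex V 1109, 969.7 and 811 beside 1042, 1120.4 and 1088.

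The median distance of the subunits from the Ctrl mean was 0.14 in MIR21-KO replicate 1, -0.08 in replicate 2 and -0.38 in replicate 3 (log2). The median SD of log2 values was 0.283 among the MIR21-KO libraries and 0.103 among the Ctrl libraries, beside 0.209 and 0.125 for all genes tested. The median log2 difference between MIR21-KO replicates 1 and 3 was 0.55 for the subunits and 0.03 for all genes. The share of genes with this order varied with length, being 25.4% of all genes under 1000 bases, 49.5% between 1000 and 3000 bases and 27.6% of longer ones, whereas for subunits the shares were 87.0% under and 82.4% over 3000 bases. With the length trend of each library removed the median difference was 0.37, with GC and length trends removed 0.39, and with all libraries scaled to equal sums of FPKM 0.27 (all genes -0.23). The part of gene length and GC content in the order was not tested further.

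**Figure D3:**
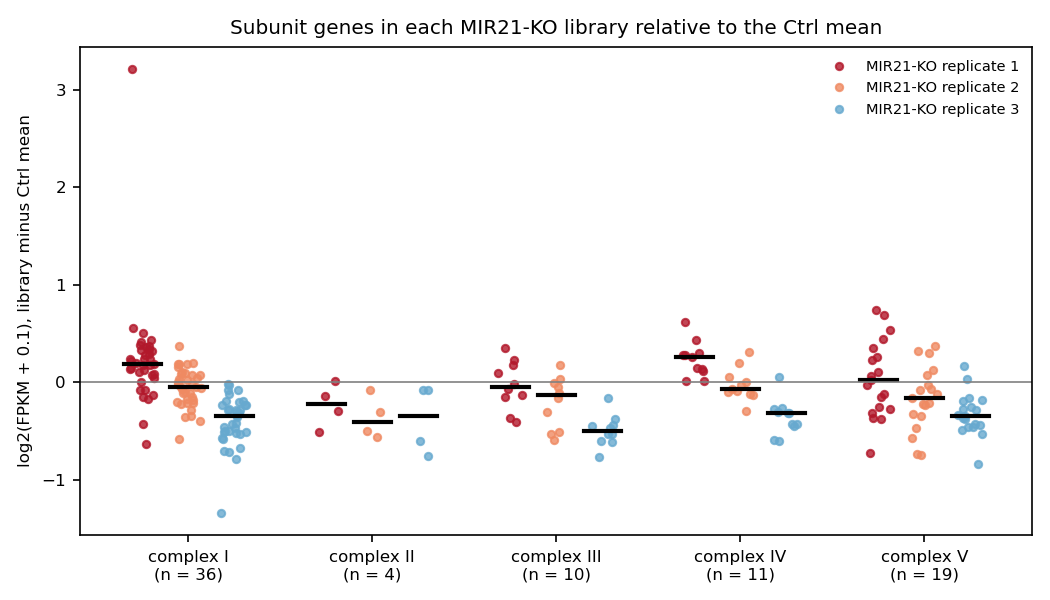
Log2(FPKM + 0.1) of each tested subunit gene (points) in each MIR21-KO library minus the mean of the 3 Ctrl libraries (y axis), by complex (x axis), with medians as bars. Replicate 1 lies highest and replicate 3 lowest in complexes I, III, IV and V (over all subunits the medians are 0.14, -0.08 and -0.38). In complexes II and III all 3 medians lie below 0.

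Of the 80 tested subunits, 18 had all MIR21-KO libraries below all Ctrl libraries and 0 had them above, beside 25.2% and 22.8% of all genes. Among the members too low to be tested, COX6B2 had them above. The lower ones included NDUFS1, NDUFB9 and NDUFV2 in complex I, SDHA, SDHB and SDHD in complex II, UQCRC2, CYC1, UQCRFS1 and UQCRC1 in complex III, and ATP5A1, ATP5B, ATP5C1, ATP5F1, ATP5G1, ATP5S and ATP5SL in complex V. Members with an adjusted p between 0.01 and 0.05 included SDHB, ATP5F1, ATP5G1, ATP5B and NDUFS1, all with negative log2 fold changes. Apart from the named isoforms, extremes and called genes, these members were chosen for mention after their values were seen.

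The genes around the subunits were examined with lists of assembly factors, electron carriers, regulators of mitochondrial biogenesis and enzymes of the TCA cycle. Of 96 tested genes, 23 fell and 3 rose at an adjusted p under 0.01, that is 27.1% called beside 16.0% of all genes, and their median log2 fold change was -0.28. Among protein-coding genes only, 31.25% of them were called, beside 27.8% of all such genes, and 28.1% were called lower, beside 14.7%. With the replicate block 2.08% were called, beside 4.07% of all genes. Their median level was 11.2 FPKM, beside 4.52 for all genes tested, and the part of level in these shares was not tested. In 50 of the 96 the MIR21-KO libraries lay below all Ctrl libraries and in 9 above, beside 25.2% and 22.8% of all genes. The order of MIR21-KO libraries seen in the subunits was present in 47.9% of them. Without Ctrl replicate 1, 2 or 3 or MIR21-KO replicate 2, 5, 6, 6 and 6 of the 96 were called (5.21 or 6.25%), beside 5.59, 5.76, 5.45 and 4.80% of all genes, so that the share of calls was then close to the background. Without MIR21-KO replicate 1 or 3, 24 and 31 of the 96 were called, beside 13.7 and 21.2% of all genes.

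The list of electron carriers, which also holds genes of ubiquinone synthesis, included the largest differences. CYCS, cytochrome c itself, was at 71.0, 76.4 and 70.8 FPKM in Ctrl and at 36.4, 37.4 and 38.7 in MIR21-KO (log2 fold change -0.95 ± 0.0707, adjusted p = 0.000256). The MIR21-KO libraries were close to each other here. PDSS1, which makes the side chain of ubiquinone, was at 9.15 ± 0.428 and 4.39 ± 0.478 FPKM (log2 fold change -1.05, adjusted p = 0.000754). COQ2, which attaches that chain, was at 11.5 ± 1.65 and 6.61 ± 0.0964 FPKM (adjusted p = 0.00321). In all, 6 of the 14 genes of this list fell (42.9%, beside 8.38% of all genes) and 0 rose (beside 7.66%), the others being PDSS2, COQ3 and ETFA. Of the 14, 11 had a log2 fold change below 0. ETFB, COQ4 and COQ6 were on the other side without passing the test. COQ4 was at 10.5 ± 0.564 and 14.1 ± 2.25 FPKM, with all MIR21-KO libraries above all Ctrl libraries (log2 fold change 0.41, adjusted p = 0.0493 by limma). ETFB was at 8.05 ± 0.550 and 11.3 ± 3.37 FPKM, with overlapping groups (adjusted p = 0.18 by limma). The log2 fold change of COQ6 was 0.03.

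Of 14 tested genes of biogenesis and mtDNA expression, 4 fell (28.6%, beside 8.38% of all genes) and 0 rose (beside 7.66%). The mitochondrial helicase TWNK was at 20.4, 20.1 and 20.3 FPKM in Ctrl and 13.0, 13.4 and 12.7 in MIR21-KO (adjusted p = 0.000805). PPRC1, a PGC-1-related coactivator, was at 16.6 ± 0.647 and 10.7 ± 0.796 FPKM (adjusted p = 0.0021). TFAM, which packages and transcribes mtDNA, was at 22.9 ± 1.37 and 14.1 ± 1.33 FPKM (adjusted p = 0.00236), and TFB2M fell as well. PPARGC1A was listed at 0 in all libraries.

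Among 18 genes of the TCA cycle and pyruvate dehydrogenase, 7 fell (38.9%, beside 8.38% of all genes) and 1 rose (5.56%, beside 7.66%). PDHX, a structural subunit of pyruvate dehydrogenase, was at 13.9, 14.7 and 13.8 FPKM in Ctrl and 7.63, 8.32 and 8.90 in MIR21-KO (log2 fold change -0.77, adjusted p = 0.00111). SUCLA2, of succinyl-CoA synthetase, which makes the substrate of complex II, was at 11.2 ± 0.341 and 6.92 ± 0.521 FPKM (adjusted p = 0.00164). CS, DLD, DLAT, IDH3A and SUCLG2 fell as well. SUCLG1, also of succinyl-CoA synthetase, was higher in all MIR21-KO libraries but did not pass the test (21.5 ± 0.759 and 29.4 ± 4.46 FPKM, adjusted p = 0.0271 by limma). IDH2, the NADP-dependent isocitrate dehydrogenase, was the gene called higher, going from 20.9 ± 1.56 to 37.9 ± 3.84 FPKM (log2 fold change 0.85, adjusted p = 0.00155).

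Of the 50 tested assembly factors, 6 fell and 2 rose, that is 16.0% called, the same share as in all genes. Those of complex IV held most of them. There COA7, LRPPRC, SCO1, COX15 and COA1 were lower (5 of 22 or 22.7%, beside 8.38% of all genes). COX20 was higher (4.55%, beside 7.66% of all genes). COA7 was at 11.7 ± 0.330 and 7.21 ± 0.307 FPKM (adjusted p = 0.00106). LRPPRC, which stabilises mitochondrial mRNAs, was at 32.4 ± 1.05 and 20.9 ± 1.84 FPKM (adjusted p = 0.00239), and SCO1, a copper chaperone, at 13.0 ± 0.548 and 8.72 ± 0.444 (adjusted p = 0.00262). TMEM70 of complex V fell from 17.5 ± 0.825 to 12.1 ± 1.10 FPKM (adjusted p = 0.00548), and TTC19 of complex III rose from 11.6 ± 0.292 to 15.3 ± 0.403 (adjusted p = 0.00523). The factors of complexes I (14 genes) and II (4 genes) had 0 calls by limma, beside 16.0% of all genes. Of the 14 for complex I, 12 had a log2 fold change below 0, beside 51.5% of all genes, with a median of -0.25. In 6 of them all MIR21-KO libraries lay below all Ctrl libraries and in 1 above, beside 25.2% and 22.8% of all genes.

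Of the 14 other pathway genes named with values and calls above, 5 held in all 6 analyses that left out a library. CYCS, PDSS1, TWNK, PDHX and COA7 kept an adjusted p under 0.01 in each, the highest values being 0.00411, 0.00703, 0.00837, 0.0098 and 0.00993. IDH2 lost its call without Ctrl replicate 1 or 2 or MIR21-KO replicate 2 (0.0101, 0.0103 and 0.0125), and COQ2 without Ctrl replicate 1 or 3 or MIR21-KO replicate 2 (0.0124, 0.0126 and 0.0209). PPRC1 lost its call without any one Ctrl library (0.013 to 0.015). LRPPRC, SCO1, SUCLA2, TFAM and TMEM70 lost it without any one Ctrl library or MIR21-KO replicate 2, with adjusted p-values between 0.01 and 0.0317, and TTC19 lost it without any library except MIR21-KO replicate 3 (0.0111 to 0.0304).

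**Figure D4:**
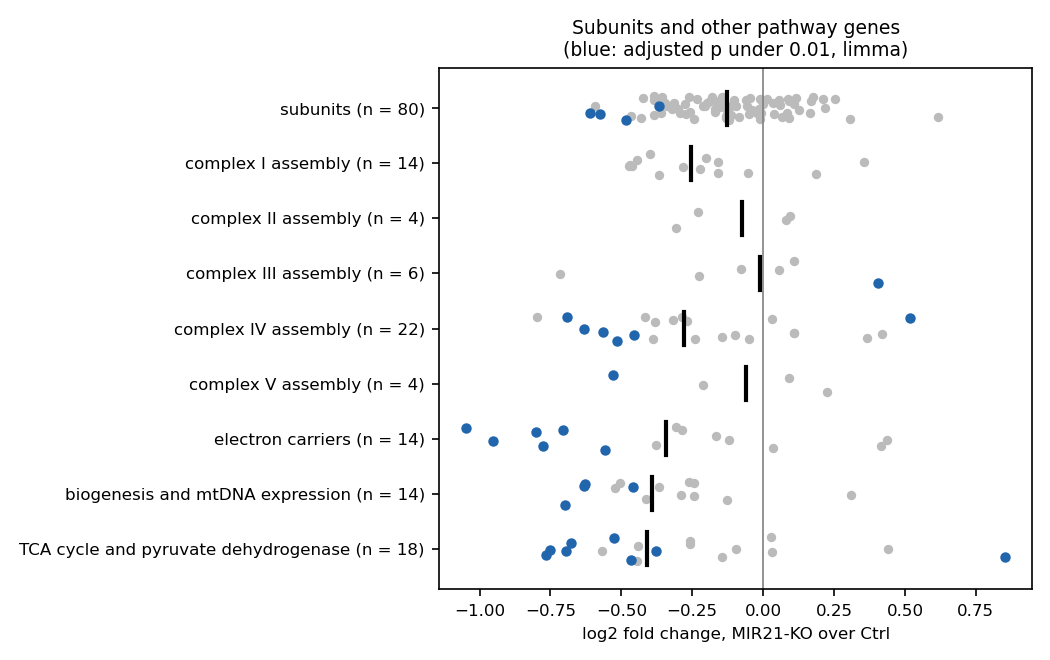
Log2 fold change (x axis, MIR21-KO over Ctrl) of each tested gene (points) in the subunits and in 8 lists of other genes of the pathway, with the median of each list as a bar. Genes with an adjusted p under 0.01 (blue) number 4 of 80 in the subunits, 6 of 14 in the electron carriers, 4 of 14 in biogenesis and mtDNA expression and 8 of 18 in the TCA cycle and pyruvate dehydrogenase. In the 5 lists of assembly factors they make up 16.0% of 50 genes, and among all genes tested 16.0%.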

How the data were processed

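PolyA RNA-seq of A549 cells was analysed, with 3 Ctrl and 3 MIR21-KO libraries grouped by the sample titles. Members and lists were chosen with earlier results of these data known. The authors deposited 1 table with gene length, FPKM per library and their own log2 fold changes, p-values and FDRs, which were not used here. Per the submitters' processing notes, cutadapt 1.14, HISAT2 2.1.0, SAMtools 1.5, featureCounts 1.5.3 and edgeR 3.18.1 were used by the authors with hg38, and FDRs followed TMM normalization. FPKM times length gave whole reads for 100% of values (tolerance 0.001). These reads served only for voom and to give the depth, so the deposited FPKM remained the values tested.

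The 16006 genes with a mean of 0.5 FPKM or more were fitted on log2(FPKM + 0.1) with limma 3.58.1 (R 4.3.3; trend and robust fitting, no covariate). P-values were two-sided and adjusted by Benjamini-Hochberg over all genes tested, with calls under 0.01. The procedure was tested on simulated data. A gene without reads could still reach 3 reads' worth, 0.219 to 0.279 FPKM at 1 kb, counting error only. Pseudogenes named after subunits (158 rows, 14 of them averaging 0.5 FPKM or more) were left out. The genes to be named were those called, the most abundant and the extremes of log2 fold change in each complex, isoform pairs, the SDH genes, and up to 3 called genes per list with the smallest p. Coordinates are from GENCODE 29 (GRCh38). Alternatives were other pseudocounts (1 and 0.01), filters (none, and a mean of 5 FPKM), median-ratio and equal-sum scaling, no trend or robust fitting, voom, removal of the length trend (lowess, span 0.3), the replicate block, a threshold of 0.05, protein-coding genes only and leaving out each library. Removal of GC and length trends was added after seeing the data. The values of 1 member of complex I are not reported here. Figures were drawn with matplotlib 3.10.9.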

Additional observations from a re-analysis of the deposited data

How the results depend on the processing

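No subunit was called higher under any of 20 alternatives, and no named gene with a call changed direction. The number called, 4, was 2 without a filter or without trend and robust fitting, 7 with a mean of at least 5 FPKM, with the length trend removed or with protein-coding genes only, 8 by voom, 10 with equal sums of FPKM or a threshold of 0.05, 12 with GC and length trends removed, and 0 to 7 when a library was left out. Complex I had 3 calls with GC and length trends removed and 2 at 0.05. Complex II had 2 with the stricter filter, either scaling, voom, GC and length trends removed, 0.05 or protein-coding genes only, and 0 to 2 without a library. Complex III had 1 without a filter or without trend and robust fitting, 4 with GC and length trends removed, and 0 to 3 without a library. Complex V had 0 without a filter or without trend and robust fitting, 3 with the stricter filter, GC and length trends removed or protein-coding genes only, 4 by voom, at 0.05 or with the length trend removed, 5 with equal sums, and 0 to 2 without a library. Other pathway genes, 26 called, had 17 without a filter, 16 without trend and robust fitting, 46 at 0.05 and 5 to 31 without a library. All genes, 2568 called, had 3982 with GC and length trends removed, 5114 at 0.05 and 768 to 3400 without a library. The cause was not tested, except that a looser threshold gives more calls by construction.

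Deviations of libraries of the same number from their group means had correlations of -0.171, -0.0177 and -0.0174 over all genes tested. These values cannot exclude a pairing by number, since the counting noise of low genes enters them. The sample titles do not state whether the numbers pair the libraries. With the replicate block, 0 subunits were called (0 in complexes II, III and V), 2 other pathway genes and 651 genes in all. With the block and the length trend removed together these were 1 (CYC1; 0 in complexes II and V and 1 in complex III), 8 and 1325. Of 837 comparisons of the 42 named and tested genes with an alternative, 725 kept their side of the threshold, 89 lost a call and 23 gained one, and 25 changed sign with no call in either. The median log2 fold change of all genes moved from -0.02 to -0.08 with equal sums, where that of the subunits was -0.19.

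Depth limits the low members, since the fewest reads behind a tested subunit were 2 in a library.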
